A study of Mus musculus with 21 samples.

Results

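The suppressors of cytokine signalling, Socs1 to Socs7, and Cish were followed through 7 groups of mouse macrophages treated with IL-4 and IL-13, with TNF or with all of them. The members were the rows of the count table whose Ensembl identifiers map to these symbols, which gave 8 of 47069 identifiers. All 8 members passed the filter on low counts that left 15581 genes to be tested. By the labels, the cells were wild-type bone marrow-derived macrophages (BMDMs) of C57BL/6 mice aged 8 to 10 weeks. All groups, the controls included, were grown with the growth factor M-CSF. Ctrl_0h was untreated. IL_6h and IL_24h received IL-4 and IL-13, TNF_6h and TNF_24h received TNF, and IL_TNF_6h and IL_TNF_24h received IL-4, IL-13 and TNF, each cytokine at 10 ng/ml and for 6 h or 24 h. Each group had 3 libraries. The labels do not say whether these came from separate cultures or animals, so p-values measure only the spread between the libraries, which may be technical. No untreated group was kept for 6 or 24 h, so a change from Ctrl_0h combines the treatment with the time in culture.

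SOCS proteins and CIS, the product of Cish, are feedback inhibitors: a cytokine receptor activates JAK kinases, these activate STAT factors, and the STAT factors switch on SOCS genes, whose products then dampen the receptor or the kinase. Each has an SH2 domain that binds phosphorylated tyrosine and a SOCS box that recruits elongins B and C and a cullin to form a ubiquitin ligase. In macrophages SOCS1 is known chiefly for restraining interferon and IL-4 signalling and SOCS3 for restraining signalling through gp130, the receptor chain shared by the IL-6 family, while CIS and SOCS2 are known as feedback inhibitors of STAT5-activating receptors.

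The RefSeq promoter table on GRCm38.p6 held 4 of the 8 members, Socs1, Socs3, Socs4 and Cish. The 250 bases before the start are shown for Socs1 and Cish. Both were higher in IL_6h and IL_24h than in Ctrl_0h, while Socs1, and not Cish, was high after 24 h of TNF alone. For Socs3, whose window lies inside the span annotated for the gene, only a STAT motif with 10 bases on either side is shown. The stretches are Socs1 at chr16:10785537-10785786 on the minus strand, Cish at chr9:107296409-107296658 on the plus strand and the Socs3 site at chr11:117969502-117969530 on the minus strand. Capitals mark matches to the motifs searched.
Socs1: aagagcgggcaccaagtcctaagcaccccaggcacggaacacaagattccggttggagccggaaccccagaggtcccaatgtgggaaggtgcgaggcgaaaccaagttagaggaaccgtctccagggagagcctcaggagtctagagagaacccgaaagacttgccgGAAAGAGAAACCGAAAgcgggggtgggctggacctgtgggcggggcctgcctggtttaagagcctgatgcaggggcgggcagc
Cish: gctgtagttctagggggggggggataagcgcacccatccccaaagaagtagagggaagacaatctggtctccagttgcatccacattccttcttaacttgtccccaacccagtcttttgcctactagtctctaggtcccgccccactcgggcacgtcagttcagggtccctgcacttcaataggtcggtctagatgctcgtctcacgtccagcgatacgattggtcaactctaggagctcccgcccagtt
Socs3: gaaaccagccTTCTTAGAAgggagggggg
The motifs were searched on both strands: TTCNNNGAA, bound by most STAT factors, TTCNNNNGAA, preferred by STAT6, the NF-kB consensus, and GAAANNGAAA, a motif of interferon-responsive promoters that was added after the Socs1 sequence was seen. The Socs1 window held 2 overlapping matches to GAAANNGAAA, at 83 to 74 and at 77 to 68 bases before the start, and 2.98% of the 32851 windows of that length in the table held one. The Socs3 window held 1 match to TTCNNNGAA, at 154 to 146 bases before the start, against 7.02% of windows with one. The windows of Cish and Socs4 held none of these letters. TTCNNNNGAA was present in 5.85% of windows and the NF-kB consensus in 3.9%, and in no window of the 4 members. A match describes the sequence and does not show binding.

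The libraries held 28063252 to 48654300 counts. The labelled cell type was checked with 8 macrophage markers, whose summed level was 12108 to 41840 CPM (counts scaled by library totals adjusted with TMM), while the lists for 7 other cell types each summed to at most 18.2 CPM in any library. In bulk RNA, fewer cells of a type and less RNA per cell cannot be told apart. Ctrl_0h replicate 2 stood apart from the other libraries: counts were found for 27761 genes in it, against 16996 to 20631 in the others. It held the highest sum of the 3 controls for each of the 7 lists of other cell types. Its dendritic cell markers summed to 10.4 CPM, against 0.721 and 0.555 in the other controls, though IL_TNF_24h replicate 3 reached 18.2 CPM on that list. Within the list Flt3 was at 3.25 CPM in it and at 0 in the other controls, while Clec9a was lower in it, at 0.0676 CPM against 0.0979 or more. Erythroid markers summed to 5.34 CPM, against 0.267 and 0.196, fibroblast markers to 3.96 CPM, against 0.428 and 0.750, and neutrophil markers to 3.69 CPM, against 0.641 and 0.718. B cell markers summed to 9.23 CPM, against 1.07 and 0.685, the highest sum of that list in any library. T and NK cell markers summed to 1.32 CPM, against 0 and 0.196. Markers of mast cells, basophils and eosinophils summed to 0.879 CPM, against 0.294 and 0.163. In 3 further groups 1 library lay far from the others: IL_6h replicate 2, IL_TNF_6h replicate 3 and IL_TNF_24h replicate 1 differed from their group by a chi-square per gene of at least 87.5, 89.2 and 96.8, against 18.5, 8.74 and 10.3 between the other libraries. TNF_24h was spread widely as well, with a chi-square per gene of 29.1, 40.4 and 107 between its libraries. Xist stood at 162 CPM or more in 15 libraries and at 0.145 CPM or less in the 6 libraries of IL_24h and IL_TNF_24h. In those 6 libraries the Y-linked Ddx3y stood at 41.8 to 50.9 CPM, and it had no counts in the other 15. The sex of the cells thus differed between IL_24h and IL_TNF_24h and the other groups. Ifi202b was at 30.3 to 64.2 CPM in IL_6h and IL_TNF_6h only. Libraries alike in these genes were compared wherever TNF_6h, TNF_24h and Ctrl_0h were set against each other, or IL_TNF against IL at one time. In all other comparisons the treatment and the source of the cells cannot be told apart.

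Ctrl_0h replicate 2 carried more RNA of 5 members and less of 3. Cish was at 0.107, 0.811 and 0 CPM in Ctrl_0h replicates 1 to 3, and the sum over replicates 1 and 3 was 4 counts. Socs2 was at 0.107, 6.02 and 0.424 CPM, so that replicate 2 lay 22.7-fold above the mean of the others. Socs1 stood at 4.81, 17.3 and 5.78 CPM and Socs3 at 4.70, 16.5 and 5.25 CPM. Socs7 was higher in replicate 2 as well, by 1.79-fold. Socs4, Socs5 and Socs6 were lower in it, at 0.894, 0.681 and 0.668 times the mean of the other controls. Each log2 fold change of a member from Ctrl_0h is therefore given with and without this library. What its part in them is due to was not tested.

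**Figure D1:**
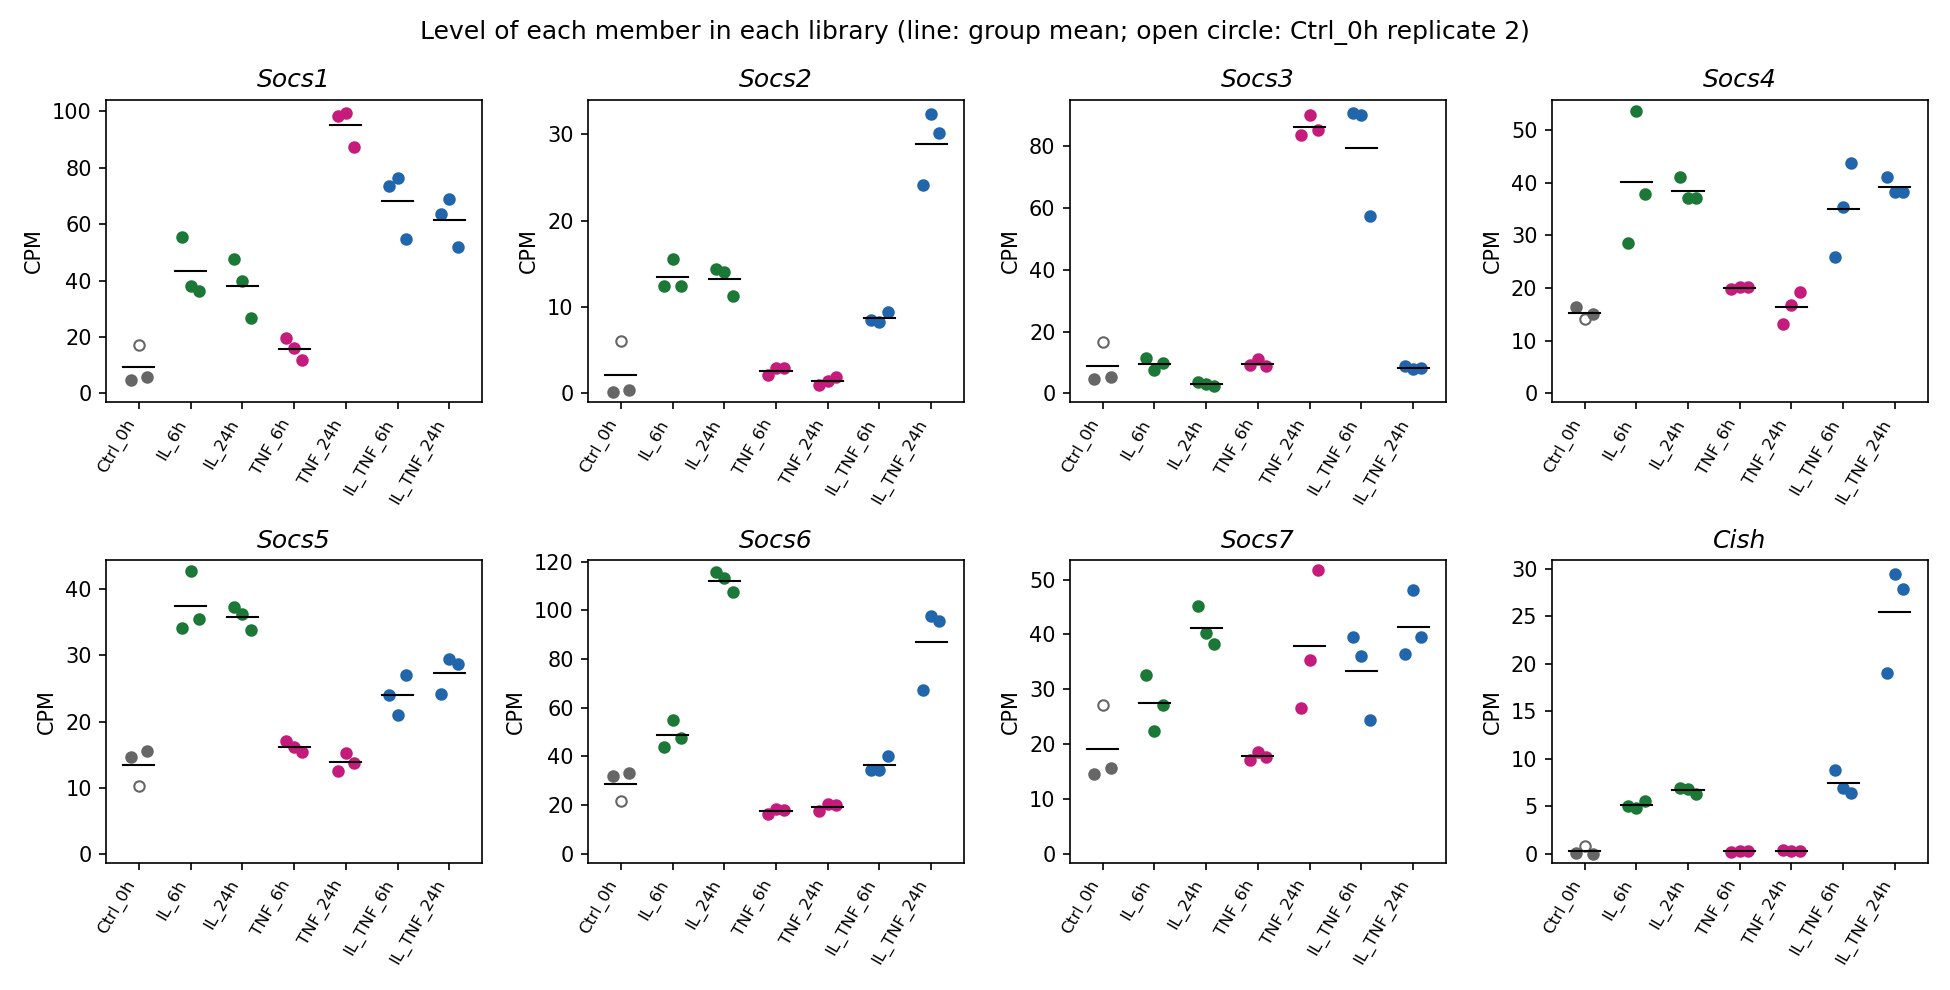
Levels of the 8 members in CPM (vertical axis, linear, one scale per panel) in each of the 21 libraries by group (horizontal axis), with grey points for Ctrl_0h, green for IL, magenta for TNF and blue for IL_TNF, a line at each group mean and an open circle for Ctrl_0h replicate 2. Socs3 is high only in TNF_24h and IL_TNF_6h among the 7 groups, and Cish and Socs2 are highest in IL_TNF_24h.

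Most of the family was higher in cells given IL-4 and IL-13 alone than in Ctrl_0h. These groups also differ from Ctrl_0h in Ifi202b at 6 h and in Xist and Ddx3y at 24 h. The treatment, the time in culture and the source of the cells cannot be told apart in these comparisons. At 6 h, 6 of 8 members were higher than in Ctrl_0h and none was lower, by edgeR's quasi-likelihood test with Benjamini-Hochberg adjustment over all genes tested and a threshold of 0.05, while 64.5% of all genes tested were called in that comparison. The count of lower members was also 0 at an unadjusted p under 0.05 and with DESeq2. At 24 h, 7 were higher and 1 was lower, with 64.3% of all genes called. The members' median log2 fold change was 1.44 at 6 h and 1.68 at 24 h, against medians of -0.0077 and -0.061 over all genes. With Ctrl_0h replicate 2 left out, 8 were higher at 6 h (60.7% of all genes called), and at 24 h 7 were higher and 1 lower (60.2%).

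Cish showed the largest change of the 8 members under IL-4 and IL-13. It reached 5.04, 4.78 and 5.55 CPM in IL_6h and 6.87, 6.82 and 6.33 CPM in IL_24h. Every one of these libraries lay above every control library. Its log2 fold change was 4.11 ± 0.51 (SE, n = 3 per group, edgeR adjusted p = 9.6e-07) at 6 h and 4.49 ± 0.50 (edgeR adjusted p = 3.5e-07) at 24 h. In the fit without Ctrl_0h replicate 2 these became 6.37 and 6.76, values that rest on 4 control counts.

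Socs2, which also limits growth hormone signalling, was at 12.4, 15.6 and 12.4 CPM in IL_6h and 14.5, 14.1 and 11.2 CPM in IL_24h. All 6 libraries lay above the highest control, by a log2 fold change of 2.66 ± 0.65 (edgeR adjusted p = 0.0015) at 6 h and 2.64 ± 0.65 (edgeR adjusted p = 0.0017) at 24 h. Without Ctrl_0h replicate 2 the changes were 5.71 and 5.69. A fit of only the groups compared lost both calls, with adjusted p-values of 0.063 and 0.079.

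Socs1, the inhibitor of JAK kinases with the broadest known range, rose as well. Its levels were 55.3, 38.1 and 36.4 CPM in IL_6h and 47.7, 39.9 and 26.8 CPM in IL_24h, all above the controls. The log2 fold changes were 2.23 ± 0.35 (edgeR adjusted p = 1.9e-05) and 2.04 ± 0.35 (edgeR adjusted p = 4.9e-05), and 3.03 and 2.85 without Ctrl_0h replicate 2.

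Socs3 moved differently from the other members. It was at 11.4, 7.70 and 9.77 CPM in IL_6h, within the range of the controls, and at 3.74, 3.09 and 2.27 CPM in IL_24h, below all of them. The log2 fold change was 0.13 ± 0.33 at 6 h (edgeR adjusted p = 0.74) and -1.53 ± 0.34 at 24 h (edgeR adjusted p = 7.4e-04). With Ctrl_0h replicate 2 left out, Socs3 rose at 6 h, by 0.95 (edgeR adjusted p = 9.8e-04), and the fall at 24 h was less than 1 on the log2 scale, at -0.71 (edgeR adjusted p = 0.009). Between IL_6h and IL_24h it fell by 1.66 ± 0.34 on the log2 scale (edgeR adjusted p = 0.0011), a comparison that uses no control. In that comparison the source of the cells cannot be told apart from the time.

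Socs4 and Socs5, which are known as inhibitors of signalling by the epidermal growth factor receptor, rose by like amounts. Socs4 went from 15.2 ± 1.13 CPM (SD, n = 3) in Ctrl_0h to 40.1 ± 12.7 in IL_6h and 38.4 ± 2.26 in IL_24h, log2 fold changes of 1.40 ± 0.20 and 1.34 ± 0.20 (SE). Socs5 went from 13.4 ± 2.81 CPM to 37.5 ± 4.62 and 35.8 ± 1.73, log2 fold changes of 1.48 ± 0.15 and 1.41 ± 0.15. Adjusted p-values of edgeR were 8.6e-06 or smaller for both genes at both times, and neither gene overlapped with the controls. Without Ctrl_0h replicate 2 the changes were 1.34 and 1.28 for Socs4 and 1.32 and 1.25 for Socs5, all called. A long non-coding gene, Gm30510, overlaps the start of Socs5, and another, Gm33230, lies within Socs2. The strand setting of the counting is not given in the sources used here, so reads of these genes cannot be told from those of the members.

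Socs6, known for binding the KIT receptor and insulin receptor substrates, rose at both times and further at 24 h. It was at 31.8, 21.7 and 33.0 CPM in Ctrl_0h, 44.0, 55.0 and 47.4 in IL_6h, and 116, 113 and 107 in IL_24h. The 3 groups did not overlap. The change from Ctrl_0h was 0.76 ± 0.15 on the log2 scale at 6 h (edgeR adjusted p = 2.9e-04) and 1.96 ± 0.16 at 24 h (edgeR adjusted p = 6.0e-09), or 0.59 and 1.79 without Ctrl_0h replicate 2, both called. IL_24h stood 1.199 ± 0.155 above IL_6h (edgeR adjusted p = 8.8e-06). From 6 to 24 h of IL-4 and IL-13, Socs6 was the 1 member called higher and Socs3 the 1 called lower, with 24% of all genes called. The 2 groups also differ in Xist, Ddx3y and Ifi202b, so time and the source of the cells cannot be told apart there.

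Socs7, which binds adaptor proteins such as NCK, was called at 24 h and not at 6 h. It rose from 19.1 ± 6.94 CPM (SD, n = 3) in Ctrl_0h to 41.2 ± 3.53 in IL_24h, a log2 fold change of 1.11 ± 0.24 (SE, edgeR adjusted p = 5.9e-04). At 6 h it was at 27.4 ± 5.08 CPM, its range overlapped with that of the controls and the change of 0.52 ± 0.24 was not called (edgeR adjusted p = 0.067). In the fit without Ctrl_0h replicate 2 the change at 6 h was 0.85 and was called (edgeR adjusted p = 0.0044), and that at 24 h was 1.44 (edgeR adjusted p = 4.7e-05).

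**Figure D2:**
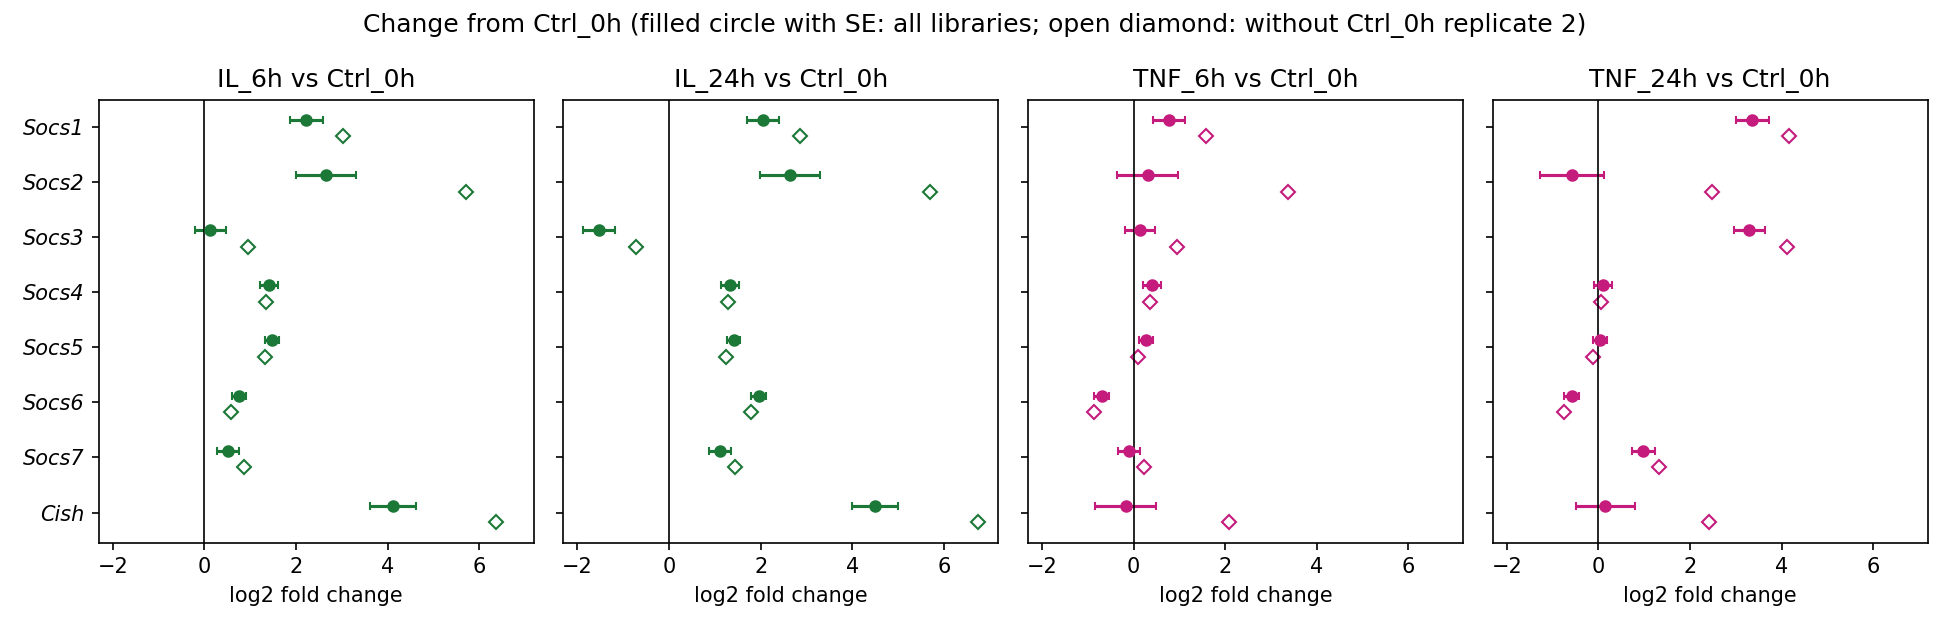
Change of each member from Ctrl_0h as log2 fold change (horizontal axis) in IL_6h, IL_24h, TNF_6h and TNF_24h, with filled circles and SE bars for the fit of all 21 libraries and open diamonds for the fit without Ctrl_0h replicate 2. Leaving that library out moved Socs2 from 2.66 to 5.71 and Cish from 4.11 to 6.37 in IL_6h, and moved Socs4 from 1.40 to 1.34.

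TNF alone, which signals mainly through NF-kB and not through JAK kinases, was followed by a late rise of Socs1, Socs3 and Socs7. At 6 h 0 members were higher and 1 was lower than in Ctrl_0h by edgeR, with 39.3% of all genes called. DESeq2 also gave 0 higher, and at an unadjusted p under 0.05 edgeR gave 1, Socs1. At 24 h, 3 were higher and 1 was lower, with 45.3% of all genes called. The members' median log2 fold change was 0.20 at 6 h and 0.13 at 24 h, against -0.043 and -0.091 over all genes. Without Ctrl_0h replicate 2, 4 members were higher and 1 lower at 6 h (32.3% of all genes called), and 5 were higher and 1 lower at 24 h (37.6%). Cish is among the higher members at both times, against 4 control counts.

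Socs1 was at 19.5, 16.0 and 11.8 CPM in TNF_6h and at 98.4, 99.4 and 87.3 CPM in TNF_24h, its highest group. The 6 h libraries overlapped with the controls and the 24 h libraries lay far above all others of the treatment. The log2 fold change from Ctrl_0h was 0.77 ± 0.35 at 6 h (edgeR adjusted p = 0.085) and 3.36 ± 0.37 at 24 h (edgeR adjusted p = 3.8e-07). With Ctrl_0h replicate 2 left out the 6 h change was 1.58 and was called (edgeR adjusted p = 1.1e-04), and the 24 h change was 4.17. The step from 6 to 24 h was 2.59 ± 0.35 on the log2 scale (edgeR adjusted p = 2.1e-05).

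Socs3 was at 9.08, 11.0 and 8.77 CPM in TNF_6h and at 83.6, 90.3 and 85.3 CPM in TNF_24h. Only the 24 h libraries left the range of the controls. Its log2 fold change was 0.14 ± 0.33 at 6 h (edgeR adjusted p = 0.78) and 3.30 ± 0.35 at 24 h (edgeR adjusted p = 2.3e-07), and the step between the times was 3.16 ± 0.34 (edgeR adjusted p = 2.0e-06). In the fit without Ctrl_0h replicate 2 the 6 h change was 0.95 (edgeR adjusted p = 0.0021) and the 24 h change 4.12.

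Socs7 stood at 17.1, 18.6 and 17.6 CPM in TNF_6h and at 26.5, 35.3 and 51.7 CPM in TNF_24h. The 24 h libraries were spread widely, and the lowest of them lay just under Ctrl_0h replicate 2. The change at 24 h was 0.99 ± 0.24 against Ctrl_0h (edgeR adjusted p = 0.0028) and 1.09 ± 0.24 against TNF_6h (edgeR adjusted p = 0.0026). In the fit without Ctrl_0h replicate 2 the change from Ctrl_0h was 1.32 at 24 h (edgeR adjusted p = 2.1e-04). At 6 h it was -0.10 with and 0.23 without that library, and was called in neither fit. From 6 to 24 h of TNF, Socs1, Socs3 and Socs7 were called higher and no member lower, with 23.6% of all genes called.

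Socs6 fell under TNF at both times. It was at 16.5, 18.6 and 18.2 CPM in TNF_6h and 17.4, 20.4 and 19.997 CPM in TNF_24h, all below the lowest control. The log2 fold changes were -0.70 ± 0.16 (edgeR adjusted p = 0.0014) and -0.58 ± 0.16 (edgeR adjusted p = 0.0052), or -0.87 and -0.75 without Ctrl_0h replicate 2, both called. Socs6 was thus called in opposite directions under IL-4 and IL-13 and under TNF, in comparisons that share the control libraries.

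Cish and Socs2 stayed low under TNF alone. Cish was at 0.201 to 0.298 CPM in TNF_6h and 0.265 to 0.395 CPM in TNF_24h, which is 24 and 30 counts in all. Socs2 was at 2.11 to 2.89 and at 0.973 to 1.92 CPM. All of these lie between the 2 lower controls and the higher one, so the size and the call of each change depended on Ctrl_0h replicate 2. The sign depended on it for Cish at 6 h and for Socs2 at 24 h. With it, Cish changed by -0.17 ± 0.67 at 6 h and 0.16 ± 0.64 at 24 h, and Socs2 by 0.30 ± 0.67 and -0.58 ± 0.70, none called. Without it, Cish changed by 2.09 and 2.42 and Socs2 by 3.36 and 2.48. All were called higher by edgeR with adjusted p-values of 0.013, 0.003, 1.4e-06 and 6.4e-05. Ctrl_0h replicates 1 and 3 together held 4 counts of Cish and 17 of Socs2. Cish failed the filter at both times in a fit of only the groups compared. It was tested here through the groups with IL-4 and IL-13, where it was high, so no conclusion is drawn from its calls. Socs4 and Socs5 were not called in either fit at either time, with changes of 0.40 ± 0.20 and 0.11 ± 0.20 for Socs4 and 0.26 ± 0.15 and 0.039 ± 0.15 for Socs5 with all libraries. These became 0.35 and 0.054 for Socs4 and 0.10 and -0.12 for Socs5 without Ctrl_0h replicate 2.

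**Figure D3:**
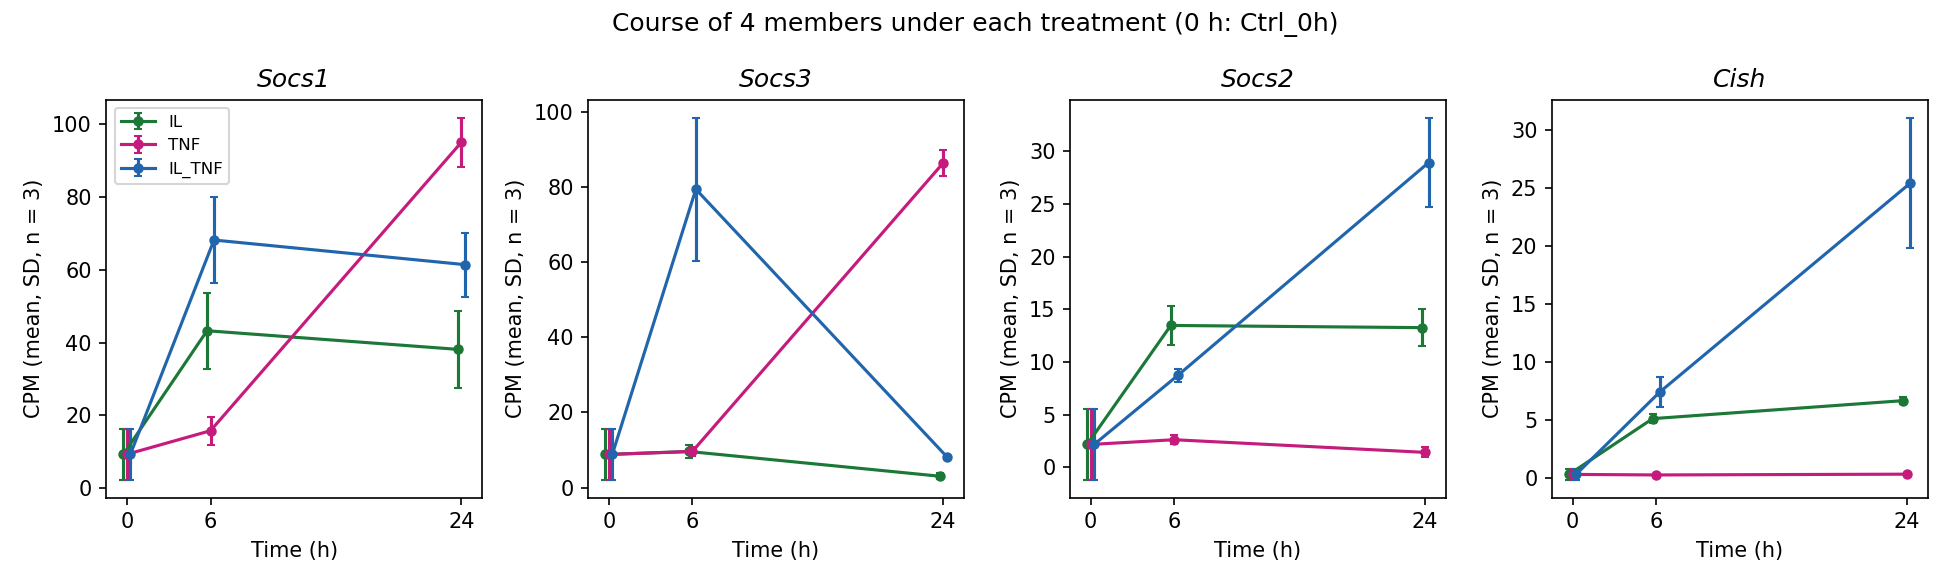
Mean level in CPM (vertical axis, bars: SD, n = 3) of Socs1, Socs3, Socs2 and Cish against time in h (horizontal axis, 0 h: Ctrl_0h) under IL (green), TNF (magenta) and IL_TNF (blue). Socs3 is at 79.4 CPM at 6 h with all cytokines and at 86.4 CPM at 24 h with TNF alone. Under IL and IL_TNF the groups of 6 h and 24 h also differ in Xist, Ddx3y and Ifi202b.

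With TNF added to IL-4 and IL-13, 2 members were called at each time, a count that depended on the libraries in the fit. At 6 h, Socs3 was higher and Socs5 lower in IL_TNF than in IL, with 14.1% of all genes called. At 24 h, Socs3 and Cish were higher and 0 members were lower by edgeR, with 11.1% of all genes called. DESeq2 gave 1 lower there, and an unadjusted p under 0.05 in edgeR gave 2, Socs5 and Socs6. The members' median log2 fold change was 0.043 at 6 h and 0.36 at 24 h, against -0.013 and 0.0011 over all genes. With Ctrl_0h replicate 2 left out, which enters these comparisons only through the filter, the scaling and the shared estimate of the spread, 2 were higher and 2 lower at 6 h (16% of all genes called) and 4 higher and 1 lower at 24 h (13.6%). With all 4 libraries that stand apart left out, 3 were higher and 2 lower at 6 h (19.4%) and 4 higher and 1 lower at 24 h (17.5%), Socs1 being then called at both times.

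Socs3 was at 90.7, 90.1 and 57.5 CPM in IL_TNF_6h and at 8.81, 7.78 and 8.17 CPM in IL_TNF_24h. The libraries at 6 h lay far above all of IL_6h and of TNF_6h. Against IL_6h the log2 fold change was 3.05 ± 0.34 (edgeR adjusted p = 2.3e-06) and against TNF_6h 3.04 ± 0.34 (edgeR adjusted p = 5.6e-07). Socs3 was lower in IL_TNF_24h than in IL_TNF_6h, with a log2 fold change of -3.27 ± 0.34 (edgeR adjusted p = 5.1e-07). These groups also differ in Xist, Ddx3y and Ifi202b, so time and the source of the cells cannot be told apart there. At 24 h Socs3 was higher than in IL_24h by 1.44 ± 0.34 (edgeR adjusted p = 0.0073) and lower than in TNF_24h by a log2 fold change of -3.39 ± 0.35 (edgeR adjusted p = 1.3e-07). The call against IL_24h was lost without IL_24h replicate 3, where the change was 1.27 (edgeR adjusted p = 0.055).

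Cish was at 8.85, 6.93 and 6.43 CPM in IL_TNF_6h and at 19.0, 29.4 and 27.9 CPM in IL_TNF_24h. All 3 libraries at 24 h lay above every other library of the study. The change from IL_24h was 1.93 ± 0.38 on the log2 scale (edgeR adjusted p = 0.0017), while that from IL_6h at 6 h was 0.53 ± 0.38 and was not called (edgeR adjusted p = 0.48). Socs2 had a like order, with 8.54, 8.22 and 9.42 CPM in IL_TNF_6h and 24.2, 32.4 and 30.2 CPM in IL_TNF_24h. The libraries lay below all of IL_6h at 6 h and above all of IL_24h at 24 h, but the changes of -0.63 ± 0.59 and 1.12 ± 0.59 were not called (edgeR adjusted p = 0.65 and 0.29). The change at 24 h was nearly the same without Ctrl_0h replicate 2, a library of neither group, at 1.12, but was then called (edgeR adjusted p = 9.2e-04). It was also called in a fit of only the groups compared (1.13, edgeR adjusted p = 0.0024) and without a filter (1.12, edgeR adjusted p = 6.8e-07), and was not called by DESeq2 (adjusted p = 0.46). At 6 h Socs2 was called lower in a fit of only the groups compared (edgeR adjusted p = 0.034) and without a filter (edgeR adjusted p = 0.030), and missed the threshold without Ctrl_0h replicate 2 (edgeR adjusted p = 0.054). Between IL_TNF_6h and IL_TNF_24h, the later group was higher by 1.78 ± 0.38 for Cish, 1.26 ± 0.16 for Socs6 and 1.73 ± 0.60 for Socs2. Thus 3 members were called higher and 1, Socs3, lower, with 28.7% of all genes called. These groups also differ in Xist, Ddx3y and Ifi202b, so time and the source of the cells cannot be told apart there. The call of Socs2 was close to the threshold (edgeR adjusted p = 0.036) and was lost with DESeq2 (adjusted p = 0.089) and with 8 of the 21 libraries left out singly, with edgeR adjusted p-values of up to 0.11 without IL_TNF_6h replicate 2.

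Socs1 was at 73.5, 76.5 and 54.6 CPM in IL_TNF_6h and 63.6, 68.9 and 51.8 CPM in IL_TNF_24h. The libraries at 24 h lay above all of IL_24h, and at 6 h the lowest fell just below the highest of IL_6h. The changes of 0.66 ± 0.33 and 0.69 ± 0.33 against IL were not called (edgeR adjusted p = 0.25 and 0.24). Socs5 was lower with TNF, at 24.1 ± 3.04 CPM (SD, n = 3) in IL_TNF_6h against 37.5 ± 4.62 in IL_6h, a log2 fold change of -0.64 ± 0.14 (SE, edgeR adjusted p = 0.0038). At 24 h it was at 27.4 ± 2.83 CPM against 35.8 ± 1.73, with groups that did not overlap and a change of -0.38 ± 0.14 that was not called (edgeR adjusted p = 0.10). Socs6 changed by -0.43 ± 0.15 and -0.37 ± 0.15, Socs4 by -0.19 ± 0.19 and 0.028 ± 0.19 and Socs7 by 0.28 ± 0.24 and 0.0044 ± 0.24, none called.

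Against TNF alone, IL_TNF_6h held more RNA of all 8 members, with 57.1% of all genes called. At 24 h, 5 members were higher and 1 was lower, with 56.3% of all genes called. The log2 fold changes at 6 h ran from 0.57 ± 0.15 for Socs5 to 4.82 ± 0.52 for Cish. At 24 h Cish was higher by 6.27 ± 0.51, Socs2 by 4.34 ± 0.70 and Socs6 by 2.17 ± 0.16, and Socs3 was the member that was lower. Socs1, at 61.4 ± 8.79 CPM against 95.04 ± 6.72 (SD, n = 3) in TNF_24h, did not overlap between the groups but was not called, with a log2 fold change of -0.63 ± 0.33 (SE, edgeR adjusted p = 0.11). The call of Socs2 at 6 h (1.73 ± 0.64, edgeR adjusted p = 0.026) was lost with DESeq2 (adjusted p = 0.054), without IL_TNF_6h replicate 3 (edgeR adjusted p = 0.063) and without any 1 of the TNF_6h libraries (edgeR adjusted p of 0.058 to 0.092). IL_TNF and TNF libraries differ in Xist or in Ifi202b.

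The effect of TNF with IL-4 and IL-13 was then set against its effect alone, as IL_TNF against IL minus TNF against Ctrl_0h at one time. The groups with and without IL-4 and IL-13 also differ in Ifi202b at 6 h and in Xist and Ddx3y at 24 h. An influence of IL-4 and IL-13 on the effect of TNF therefore cannot be told apart from that of the source of the cells. At 6 h, 1 member had a higher and 1 a lower effect with IL, with 18.4% of all genes called. Socs3 had an effect 2.91 ± 0.47 larger on the log2 scale (edgeR adjusted p = 1.9e-04), and that of Socs5 was lower, at -0.91 ± 0.21 (edgeR adjusted p = 0.0042). At 24 h, 0 members had a higher and 3 a lower effect by edgeR, with 24.1% of all genes called. DESeq2 gave 1 higher, and so did an unadjusted p under 0.05 in edgeR, for Cish. These were Socs1, at -2.67 ± 0.48 (edgeR adjusted p = 4.3e-04), Socs3, at -1.86 ± 0.47 (edgeR adjusted p = 0.0074), and Socs7, at -0.98 ± 0.34 (edgeR adjusted p = 0.043). Socs3 thus changed sign between the times.

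Both differences of Socs3 were called without Ctrl_0h replicate 2, at 2.09 and -2.67. Socs5 was at -0.75 at 6 h, and Socs1 and Socs7 were at -3.48 and -1.32 at 24 h, all called. Socs2 was added, at -3.99 at 6 h and at -1.35 at 24 h, where it had been 1.70 ± 0.91 with all libraries. This made 1 higher and 2 lower at 6 h (15.9% of all genes called) and 0 higher and 4 lower at 24 h (20.4%). The call of Socs7 was lost when only genes above 1 CPM in at least 3 libraries were kept (edgeR adjusted p = 0.057) and in a fit of only the groups compared (edgeR adjusted p = 0.063). It was also lost with 14 of the 21 libraries left out singly, with a value of -0.70 (edgeR adjusted p = 0.15) without TNF_24h replicate 3.

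**Figure D4:**
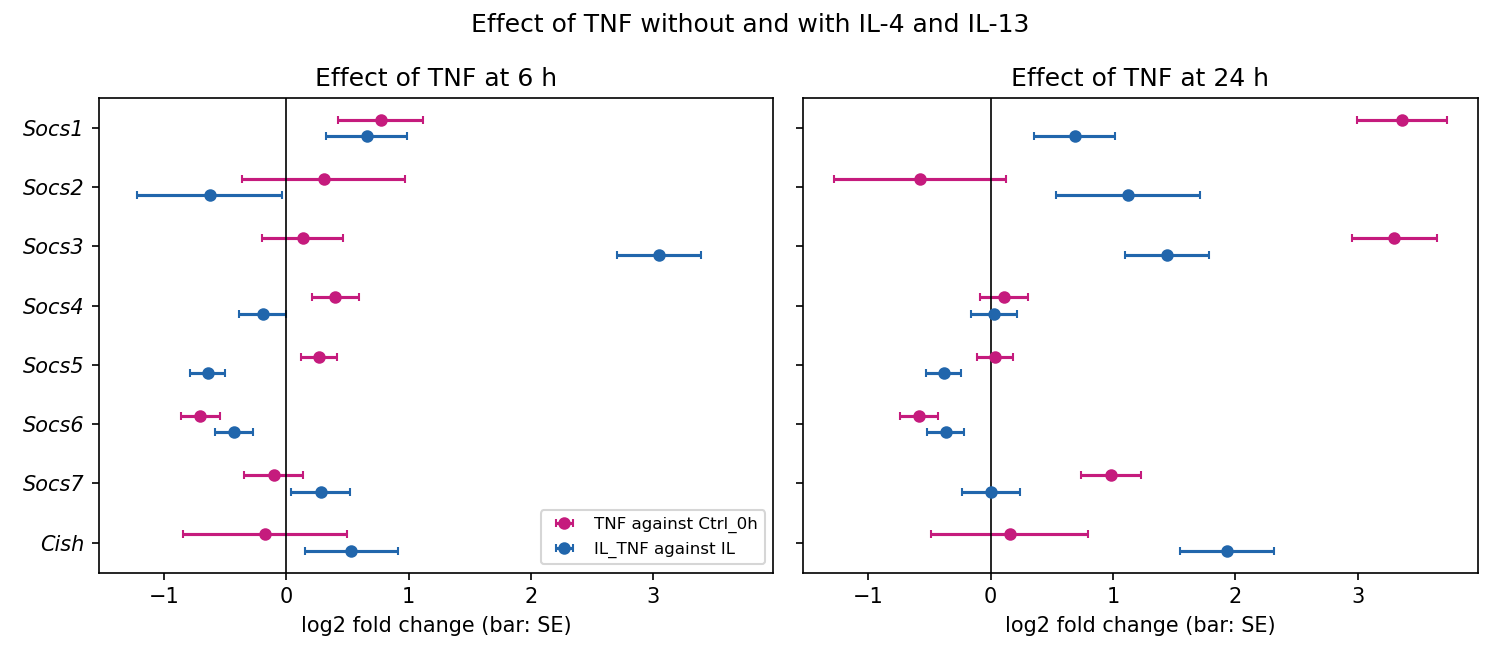
Effect of TNF as log2 fold change with SE (horizontal axis) on each member (vertical axis) at 6 h and at 24 h, without IL-4 and IL-13 (magenta, TNF against Ctrl_0h) and with them (blue, IL_TNF against IL). At 6 h Socs3 is at 0.14 without and 3.05 with them, and at 24 h Socs1 is at 3.36 without and 0.69 with them.

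Levels were compared between members per kilobase of the longest coding transcript in GENCODE release M1. On this scale, Socs1 was the most abundant member in TNF_24h, at 77.9 ± 5.51 CPM per kb (SD, n = 3), followed by Socs3, at 33.9 ± 1.36. In IL_24h Socs1 was at 31.2 ± 8.62 CPM per kb and Socs6 at 18.6 ± 0.70, and Socs3 was lowest, at 1.19 ± 0.29. In Ctrl_0h Socs1 was at 7.61 ± 5.69 CPM per kb and Cish at 0.107 ± 0.155. Both values depend on Ctrl_0h replicate 2. Before division by length, the Ctrl_0h mean was 9.29 CPM for Socs1 and 0.306 CPM for Cish. Over replicates 1 and 3 alone it was 5.29 and 0.0534 CPM. Cish reached 8.93 ± 1.97 CPM per kb in IL_TNF_24h, where Socs1 was at 50.3 ± 7.20.

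The members differed in how widely their levels ranged over the 7 groups. The highest group mean was 98.6 times the lowest for Cish, 28.5 times for Socs3, 20.2 times for Socs2, 10.2 times for Socs1 and 6.32 times for Socs6. It was 2.79 times for Socs5, 2.64 times for Socs4 and 2.33 times for Socs7. This order depends on Ctrl_0h replicate 2. Over Ctrl_0h replicates 1 and 3 the mean was 0.0534 CPM for Cish, 0.266 for Socs2 and 5.29 for Socs1. These values lie below the lowest group means of these genes, 0.258, 1.43 and 9.29 CPM. Without that library their ranges are wider, and Socs2 ranges more widely than Socs3. The lowest group of Cish, TNF_6h, holds 24 counts. In the order of the group means, Cish, Socs2, Socs4, Socs5 and Socs6 had Ctrl_0h, TNF_6h and TNF_24h as their lowest 3 groups. The 4 groups with IL-4 and IL-13 lay above them. How many of all genes have this order was not counted. Those 4 groups also differ from the other 3 in Ifi202b at 6 h or in Xist and Ddx3y at 24 h. The treatment and the source of the cells cannot be told apart in this order. Socs7 showed a graded order in which each group overlapped with its neighbour. For Socs3, the 2 highest groups, IL_TNF_6h and TNF_24h, overlapped with each other and with no other group.

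The genes most like each member were named from 10023 genes by Pearson's r of log2 CPM over the 21 libraries, as a description over libraries that share groups. Socs4 had the closest, with r = 0.98 for Rc3h1, which encodes the RNA-binding protein roquin-1, and for the kinase gene Map3k2. Socs6 was most like Rassf8 (r = 0.98) and Mgl2 (r = 0.98), a macrophage lectin that went from 0.662 CPM in Ctrl_0h to 239 CPM in IL_24h. Socs5 was most like Znrf2 (r = 0.98), and the third on its list was the ubiquitin ligase gene Cblb (r = 0.97). Cish was most like Pdcd1lg2 (r = 0.96), which encodes the PD-1 ligand PD-L2 and rose from 0.256 CPM in Ctrl_0h to 53.4 CPM in IL_TNF_24h, and like St8sia1 (r = 0.96). Socs2 was most like Rab43 (r = 0.94) and also had St8sia1 (r = 0.92). Socs3 was most like Efna2 (r = 0.94) and Tagap (r = 0.93), which stood at 42.9 CPM in IL_TNF_6h and 40.8 CPM in TNF_24h. Socs1 was most like Tarm1 (r = 0.90) and Socs7 most like Chd7 (r = 0.89).

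The rest of the pathway was read from 9 lists of 122 genes, of which 102 distinct genes were tested. Among ligands, 8 of the 19 listed cytokines that signal through JAK and STAT were tested. At TNF_24h 6 of them were higher than in Ctrl_0h and 0 lower, against 45.3% of all genes called in either direction. Il27, a cytokine that signals through gp130, was at 45.2 ± 3.40 CPM against 0.808 ± 0.229 (SD, n = 3), a log2 fold change of 5.82 ± 0.35 (SE). Il10, which acts through STAT3, was at 17.1 ± 0.68 CPM against 4.06 ± 0.38, a change of 2.07 ± 0.34, and Il15 changed by 2.84 ± 0.23. At TNF_6h 4 of 8 were higher and 0 lower, against 39.3% of all genes called, and in IL_24h 0 were higher and 5 lower, against 64.3%. Without Ctrl_0h replicate 2 these counts were 6 and 0, 3 and 0, and 0 and 5, and the changes in TNF_24h were 6.01 for Il27, 2.00 for Il10 and 2.82 for Il15.

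Among 19 receptor chains tested, 9 were higher and 1 lower in IL_6h and 8 were higher and 3 lower in IL_24h. Those called in either direction were thus 10 and 11 of 19, a smaller share than the 64.5% and 64.3% of all genes called. Il6st, which encodes gp130, rose by 2.95 ± 0.15 and 3.53 ± 0.16 on the log2 scale, to 425 ± 60.03 and 639 ± 3.84 CPM (SD, n = 3) from 55.2 ± 6.63. Csf2rb, the common beta chain of the GM-CSF, IL-3 and IL-5 receptors, rose by 3.62 ± 0.11 and 3.02 ± 0.11. Under TNF 9 chains were higher at each time and 2 and 4 lower, 11 and 13 of 19 called against 39.3% and 45.3% of all genes. Il15ra rose by 3.43 ± 0.25 at 6 h and 4.42 ± 0.26 at 24 h. With Ctrl_0h replicate 2 left out, 8 chains were higher and 3 lower in IL_6h and 8 and 4 in IL_24h, and under TNF 9 were higher at each time, with 3 and 5 lower. All genes were then called at 60.7% and 60.2% in the IL groups and at 32.3% and 37.6% in the TNF groups. The share of chains called was then below that of all genes in IL_6h and above it in IL_24h. In that fit Il6st changed by 2.85 and 3.43, Csf2rb by 3.52 and 2.93 and Il15ra by 3.40 and 4.39.

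Of 11 kinases and STAT factors, 7 were higher and 3 lower in IL_6h and 8 higher and 3 lower in IL_24h, while 7 were higher in TNF_6h and in TNF_24h, with 1 and 0 lower. All genes were called at 64.5% and 64.3% in the IL groups and at 39.3% and 45.3% in the TNF groups. Jak2 rose in all 4, by 3.02 ± 0.17, 2.34 ± 0.16, 2.18 ± 0.16 and 3.13 ± 0.17, and was higher by 1.45 ± 0.16 and 1.48 ± 0.16 when TNF was added to IL-4 and IL-13. Stat5a rose in IL_24h, by 1.84 ± 0.17. In the fit without Ctrl_0h replicate 2, 7 were higher and 2 lower in both IL groups and 7 higher and 0 lower in both TNF groups, Jak2 changed by 3.06, 2.38, 2.22 and 3.17, and Stat5a by 1.87.

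Among target genes of the STAT factors, all 8 listed STAT6 targets were higher in IL_6h and in IL_24h, where 64.5% and 64.3% of all genes were called in either direction. Arg1, which encodes arginase-1, rose from 0.0356 ± 0.0617 to 248 ± 20.1 CPM (SD, n = 3) in IL_6h. Of 6 STAT5 targets, 1 was higher and 4 were lower in IL_24h, and 0 were higher and 3 lower in IL_TNF_24h against IL_24h, where Cish was higher. In these comparisons 64.3% and 11.1% of all genes were called. Cish and Socs2 are themselves known STAT5 targets, and were not in that list. Without Ctrl_0h replicate 2 the counts of STAT6 targets under IL were again 8 and 8, and 1 STAT5 target was higher and 4 were lower in IL_24h.

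Among the 9 partners that turn a SOCS box protein into a ubiquitin ligase, 3 were higher and 5 lower in IL_6h and 2 higher and 5 lower in IL_24h, 8 and 7 of 9 called against 64.5% and 64.3% of all genes. Elob, which encodes elongin B, was at 274 ± 25.5 CPM (SD, n = 3) in Ctrl_0h, 99.0 ± 22.5 in IL_6h and 84.4 ± 9.001 in IL_24h, log2 fold changes of -1.47 ± 0.18 and -1.70 ± 0.18. Eloc, for elongin C, changed by -0.997 ± 0.147 and -1.34 ± 0.15, and Nedd8, the modifier that activates cullins, by -1.39 ± 0.19 and -1.32 ± 0.19. Under TNF 2 of 9 partners were higher and 0 lower at each time, a smaller share than the 39.3% and 45.3% of all genes called. Of 18 other SOCS box proteins tested, 8 were higher and 6 lower in IL_6h, 10 and 4 in IL_24h, 3 and 3 in TNF_6h and 6 and 2 in TNF_24h. These are 14 of 18 called in each IL group, above the 64.5% and 64.3% of all genes, and 6 and 8 of 18 under TNF, both smaller shares than the 39.3% and 45.3% of all genes. With Ctrl_0h replicate 2 left out the partners were 3 higher and 5 lower in IL_6h and 1 higher and 5 lower in IL_24h. Of 19 other SOCS box proteins then tested 6 were higher and 5 lower in IL_6h, 9 and 3 in IL_24h, and 3 and 2 in both TNF groups. All genes were then called at 60.7% and 60.2% in the IL groups and at 32.3% and 37.6% in the TNF groups. The share of other SOCS box proteins called was then below that of all genes in IL_6h, above it in IL_24h and below it under TNF. Elob then changed by -1.39 and -1.62, Eloc by -0.97 and -1.31 and Nedd8 by -1.33 and -1.27.

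Other inhibitors of JAK and STAT signalling moved as follows. Of 14, 9 were higher and 2 lower in IL_6h and in IL_24h, 8 higher and 1 lower in TNF_6h and 7 higher and 1 lower in TNF_24h. Those called were 11, 11, 9 and 8 of 14, against 64.5%, 64.3%, 39.3% and 45.3% of all genes. Cbl and Cblb, ubiquitin ligases, rose in IL_6h by 2.67 ± 0.17 and 2.94 ± 0.18. Usp18, which restrains the type I interferon receptor, rose under TNF by 3.02 ± 0.16 at 6 h and 4.10 ± 0.17 at 24 h. In the fit without Ctrl_0h replicate 2 these counts did not change, Cbl and Cblb rose in IL_6h by 2.56 and 2.76, and Usp18 rose under TNF by 2.85 and 3.93.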

How the data were processed

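RNA was extracted with Trizol and sequenced, per the labels' protocols. The deposited values were raw counts per gene in 1 table of 47069 identifiers and 21 libraries, with no normalization. The submitters' processing notes name TopHat2 2.0.12, featureCounts, Subread 1.6.3, edgeR 3.28.1 and the build GRCm38. How strand and read mates were treated, and which annotation was used, is not given in the sources used here. Values of 2 (30373) outnumbered values of 1 (17808) in the table, while the members' own counts were even in 78 of 167 cases.

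Symbols and positions came from gene tables on GRCm38.p6, which named 32832 identifiers. With R 4.3.3 and edgeR 4.0.16, genes passing filterByExpr (15581) were scaled by TMM, and all 21 libraries entered 1 model with a coefficient for each group (common biological coefficient of variation 22.8%). There were 11 contrasts of a pair of groups and 2 interactions, tested by the quasi-likelihood F test with Benjamini-Hochberg adjustment over all genes and a threshold of 0.05. The standard error is the log2 fold change divided by the root of F. On simulated data with 15296 genes tested, 80 of 100 genes changed 2-fold and 96 of 100 changed 4-fold were recovered, with 8 false calls among 184, for IL_TNF_6h against IL_6h. The simulation drew each gene independently around its group mean. It thus held no deviation shared by many genes of 1 library, as in IL_6h replicate 2 and IL_TNF_6h replicate 3. These rates may therefore not hold for the real libraries.

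Members, lists and motifs were chosen with earlier results of these data known. All 8 members were named. From each pathway list up to 3 genes per contrast could be named, ranked by absolute change after requiring a call and a mean of 10 CPM or more in 1 of the groups. Of genes with at least 5 CPM in their highest group, the 3 most correlated with a member (prior count 2) could be named. Alternatives were DESeq2 1.42.0 and its size factors, no filter, a filter of 1 CPM in 3 libraries, a replicate block, a fit of the groups compared, each library left out and, chosen after seeing the data, 4 libraries left out together. Protein sequences were not used here, and results of some listed genes are not reported here.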

Additional observations from a re-analysis of the deposited data

Results flagged for a closer look

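For 5 values the effect of TNF differed between macrophages with and without IL-4 and IL-13 by the interaction term of edgeR over all genes tested, in log2 units with n = 3 libraries per group. At 6 h these were Socs3, at 2.91, and Socs5, at -0.91. At 24 h they were Socs1, at -2.67, Socs3, at -1.86, and Socs7, at -0.98, a call that was lost with 14 of the 21 libraries left out singly. The effect without IL-4 and IL-13 was taken against untreated cells at 0 h, so it also holds the time in culture, which cannot be told apart from TNF. The groups with IL-4 and IL-13 also differ from the others in Ifi202b at 6 h and in Xist and Ddx3y at 24 h. An influence of IL-4 and IL-13 on the effect of TNF therefore cannot be told apart from that of the source of the cells.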

How the results depend on the processing

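Of 104 pairs of a member and a comparison, 51 were called. Of these, 46 kept their direction and call in every alternative other than leaving out single libraries, 47 kept both with each library left out, and 0 changed direction in any setting. The count of members called in TNF_6h against Ctrl_0h was 1, and became 3 without a filter, 2 with a replicate block, 2 in a fit of the groups compared and 6 without the 4 libraries that stand apart (Ctrl_0h replicate 2, IL_6h replicate 2, IL_TNF_6h replicate 3 and IL_TNF_24h replicate 1, chosen after seeing the data). In IL_TNF_6h against IL_6h it went from 2 to 4 without a filter and to 5 without the 4 libraries. In IL_TNF_24h against IL_24h it went from 2 to 4 without a filter, 4 in a fit of the groups compared and 5 without the 4 libraries. For the interaction it went at 24 h from 3 to 5 without a filter and to 5 without the 4 libraries, and at 6 h from 2 to 4 without the 4 libraries. With single libraries left out, these counts ran from 1 to 5 in TNF_6h against Ctrl_0h (5 without Ctrl_0h replicate 2, 2 without IL_6h replicate 2 or IL_TNF_6h replicate 3), from 2 to 4 in IL_TNF_6h against IL_6h (4 without Ctrl_0h replicate 2) and from 1 to 5 in IL_TNF_24h against IL_24h (5 without Ctrl_0h replicate 2, 1 without IL_24h replicate 3). The causes of these shifts were not tested.

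Signs changed only for members that were not called with all libraries. With single libraries left out, log2 fold changes ran as follows. For Cish they ran from -0.49 to 2.33 in the interaction at 24 h, from -1.56 to 1.26 in that at 6 h, from -0.40 to 2.42 in TNF_24h and from -0.73 to 2.09 in TNF_6h against Ctrl_0h. For Socs1 they ran from -0.37 to 0.039 between IL_6h and IL_24h and from -0.92 to 0.19 in the interaction at 6 h. For Socs2 they ran from -0.086 to 0.097 between IL_6h and IL_24h, from -1.35 to 2.28 in the interaction at 24 h, from -1.15 to 2.48 in TNF_24h and from -0.27 to 3.36 in TNF_6h against Ctrl_0h. For Socs3 they ran from -0.16 to 0.95 in IL_6h and from -0.16 to 0.95 in TNF_6h against Ctrl_0h. For Socs4 they ran from -0.25 to 0.21 between IL_6h and IL_24h, from -0.0019 to 0.077 in IL_TNF_24h against IL_24h, from -0.0092 to 0.35 between IL_TNF_6h and IL_TNF_24h, from -0.39 to 0.087 in IL_TNF_6h against IL_6h, from -0.23 to 0.046 in the interaction at 24 h and from -0.019 to 0.25 in TNF_24h against Ctrl_0h. For Socs5 they ran from -0.13 to 0.040 between IL_6h and IL_24h and from -0.12 to 0.16 in TNF_24h against Ctrl_0h. For Socs7 they ran from -0.12 to 0.092 in IL_TNF_24h against IL_24h, from -0.072 to 0.42 in IL_TNF_24h against TNF_24h and from -0.26 to 0.23 in TNF_6h against Ctrl_0h.

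Without the 4 libraries, the sign also changed in TNF_6h against Ctrl_0h for Socs7 (0.31) and Cish (2.16), in TNF_24h against Ctrl_0h for Socs2 (2.55) and Socs5 (-0.051), in IL_TNF_24h against IL_24h for Socs4 (-0.0018), between IL_6h and IL_24h for Socs2 (0.093), Socs4 (0.21) and Socs5 (0.037), and in the interactions for Cish (-1.58 at 6 h, -0.38 at 24 h) and Socs2 (-1.31 at 24 h). Socs7 in IL_TNF_24h against IL_24h, at 0.0044, became -0.00048 with DESeq2 size factors, -0.0032 without a filter, -0.0038 with the replicate block and -0.00060 with DESeq2. Socs5 in TNF_24h against Ctrl_0h became -0.0052 with the strict filter, and Socs2 between IL_6h and IL_24h became 0.0055 with the replicate block. Libraries that share a replicate number in different groups had deviations correlated at -0.31 to 0.36 (median 0.0066 over 63 pairs, 6 of them over 0.1), and 7 of 21 libraries correlated best with their own number. Pairing by number was thus not seen. This check cannot exclude it, since the libraries that stand apart do not all carry the same number. Cish could not be fitted in the groups compared alone for TNF_6h or TNF_24h against Ctrl_0h or between the TNF times, since it then failed the filter. Depth limits Cish most, with 24 to 30 counts in each group without IL-4 and IL-13.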
